A study of Mus musculus with 12 samples.

Results

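The genes described here are 10 genes of the smooth-muscle type actin programme, namely *Acta2*, *Tagln*, *Myl9*, *Tpm1*, *Tpm2*, *Cnn1*, *Cnn2*, *Cald1*, *Vcl* and *Pdgfrb*, of the 45792 genes in the deposited files. They were chosen by name as a contractile and mesenchymal set, and with the knowledge that *Acta2* and *Tagln* rose in Ncf1-/- neural stem cells (NSCs) given Igfbp2, so that the values of these 10 genes in treated against vehicle-treated cells are given as a description without a test. All 10 passed the filter on low counts and were among the 15706 genes tested. The libraries came from primary forebrain NSCs of neonatal C57BL/6J-background pups, grown in serum-free medium with EGF and FGF and used at the second passage. Per the study's methods each culture was grown from a single pup. The groups were WT NSCs, Ncf1-/- NSCs and Ncf1-/- NSCs given recombinant mouse Igfbp2, with 4 libraries each. Ncf1 is an organizer subunit of the Nox2 oxidase, and all Ncf1-/- cells, treated or not, lack it in every cell type. Per the labels Igfbp2 was added at 100 ng/ml, 48 h after plating, and RNA was taken 48 h later, whereas the study's methods give a lower dose. WT and untreated Ncf1-/- cultures carry no treatment in the labels, and the study's methods describe vehicle for the latter. Libraries are called by the numbers of their labels, which are 9 to 12 for WT, 1 to 4 for vehicle-treated Ncf1-/- and 5 to 8 for Igfbp2-treated Ncf1-/- cells.

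Smooth muscle cells and myofibroblasts build stress fibres from a special actin and from proteins that bind actin and myosin. *Acta2* encodes smooth-muscle α-actin, *Tagln* and the calponins *Cnn1* and *Cnn2* encode actin-binding proteins of one family, *Tpm1* and *Tpm2* encode tropomyosins that lie along the filament, *Cald1* encodes caldesmon, which holds back myosin on actin, *Myl9* encodes a myosin regulatory light chain, and *Vcl* encodes vinculin, which ties filaments to adhesion sites. Many of these genes are driven by serum response factor (SRF) with its MRTF and myocardin cofactors, which read the pool of free actin. *Pdgfrb* encodes the PDGF receptor β and marks pericytes and other mesenchymal cells. In the brain the full set is known from the vessel wall and the meninges, while *Tpm1*, *Cald1*, *Vcl* and *Cnn2* are also used by many other cells, cultured neural progenitors included.

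The DNA element through which SRF acts, the CArG box, was looked up in the promoters of these genes, because the genes share this regulator. RefSeq promoter windows (GRCm38.p6) were given for 8 of the 10 genes and were searched over the 250 bases before the annotated start. A CArG box (CC and GG around 6 bases that are all A or T) was in the windows of *Myl9*, *Cnn2* and *Vcl*, 161, 56 and 227 bases before the start. A CArG-like element with 1 G or C among the 6 central bases was in *Acta2*, at 84 and 34 bases, and in *Myl9*, at 99 bases. Of 32851 windows of this length over all genes, 1.47% held a CArG box and 7.24% a CArG-like element. The MCAT motif CATTCC, to which TEAD factors bind, was found on either strand in *Acta2*, *Tpm1*, *Cald1* and *Vcl*, and in 12.6% of all windows. *Tpm2* and *Cnn1* held none of these letters in this window. The elements are shown in capitals in their surroundings, 5′ to 3′ on the strand of the gene and without the bases that GENCODE M21 places inside the gene. For *Acta2*, where GENCODE begins the gene 217 bases further upstream than RefSeq, 30 bases around each element are shown.
Acta2, chr19:34255438-34255467, minus strand: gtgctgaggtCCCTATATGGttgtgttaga
Acta2, chr19:34255388-34255417, minus strand: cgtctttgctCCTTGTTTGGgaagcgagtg
Cnn2, chr10:79988350-79988583, plus strand: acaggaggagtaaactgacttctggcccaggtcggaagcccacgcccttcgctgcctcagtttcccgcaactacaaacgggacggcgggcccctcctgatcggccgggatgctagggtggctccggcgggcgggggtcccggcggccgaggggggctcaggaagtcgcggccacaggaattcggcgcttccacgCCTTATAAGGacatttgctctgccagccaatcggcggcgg
Myl9, chr2:156775214-156775419, plus strand: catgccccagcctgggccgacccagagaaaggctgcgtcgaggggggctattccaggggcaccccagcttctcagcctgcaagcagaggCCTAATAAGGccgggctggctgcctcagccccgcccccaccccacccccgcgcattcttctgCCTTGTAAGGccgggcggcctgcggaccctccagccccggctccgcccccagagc
Vcl, chr14:20929148-20929397, plus strand: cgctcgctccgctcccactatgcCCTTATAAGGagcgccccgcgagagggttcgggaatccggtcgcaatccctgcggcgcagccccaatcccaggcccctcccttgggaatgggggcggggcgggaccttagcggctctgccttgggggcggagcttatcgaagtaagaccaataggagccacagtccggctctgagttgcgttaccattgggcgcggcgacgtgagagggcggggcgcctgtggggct
The boxes of *Cnn2* and *Vcl* had the same 10 letters, CCTTATAAGG, and that of *Myl9* read CCTAATAAGG.

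RSEM expected counts, which estimate the reads of each gene, summed to between 18201622 and 34086554 per library, the most in WT library 11. *Ncf1* had 1 to 7 counts in every library, which leaves the genotype unchecked at the RNA level. Levels are given as CPM, the read count scaled to the size of each library. *Uty*, *Kdm5d*, *Ddx3y* and *Eif2s3y*, 4 genes of the Y chromosome, summed to 105 to 116 CPM in vehicle-treated and 7.79 to 9.18 CPM in treated Ncf1-/- libraries, with *Xist* at 72.3 to 87.8 and 166 to 275 CPM. Treatment and sex-linked expression therefore cannot be told apart, although the methods state that the treated and vehicle-treated cultures were paired by animal. WT library 12 had 6.46 CPM of the Y-linked genes against 107 to 118 CPM in the other WT libraries, and a second sample sheet of the study lists it under another treatment. Its *Xist* level was 291 CPM, against 3.87 to 5.22 CPM in the other WT libraries. Vehicle-treated Ncf1-/- libraries thus held Y-linked RNA at the level of WT libraries 9 to 11 together with *Xist* RNA between these values. Treated libraries were near WT library 12 in the sex-linked genes and apart from WT libraries 9 to 11. The comparison of treated cells with WT thus largely shares the limit given for treatment. Whether each culture came from a single pup, as the methods state, was not tested. WT library 11 stood apart in the genes described here, being the highest WT library for 7 of the 10. It also had the lowest summed level of 9 oligodendrocyte genes, 1847 CPM against 5790 to 10310 CPM in the other WT libraries, and the highest of 10 neural stem cell genes, 9487 CPM against 3498 to 5383 CPM. The 8 Ncf1-/- libraries had 222 to 312 CPM of the oligodendrocyte genes and 8892 to 9796 CPM of the neural stem cell genes. In 7 astrocyte genes library 11 was unlike them, with the highest sum of all libraries, 11943 CPM. The other WT libraries had 6466 to 10613 CPM of these and the Ncf1-/- libraries 2446 to 3562 CPM. Bulk RNA does not separate fewer cells of a type from less RNA per cell, in this and in every later result. For the 10 genes, differences from WT are also given without library 11, or without libraries 11 and 12, where a call changed or a fold moved by over 1.5 times.

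Most of the actin genes were lowest in WT, higher in Ncf1-/- and highest in Igfbp2-treated Ncf1-/- NSCs, with *Acta2*, *Tagln* and *Tpm2* showing the widest steps, while *Pdgfrb* was highest in WT. Against WT, 6 of the 10 genes passed the test in Ncf1-/- cells (5 higher and 1 lower) and 9 in Igfbp2-treated Ncf1-/- cells (8 higher and 1 lower), by edgeR's quasi-likelihood test with Benjamini-Hochberg adjustment. Of all genes tested, 57.2% passed in the first comparison (28.9% as higher and 28.2% as lower) and 62.4% in the second (31.6% as higher and 30.8% as lower). The 10 genes had a median log2 fold change of 0.61 in Ncf1-/- against WT and of 1.29 in treated Ncf1-/- against WT, beside medians of 0.02 and -0.01 over all genes tested. Both comparisons use libraries that also entered the comparison by which the genes were chosen. In treated against vehicle-treated Ncf1-/- cells all 10 fitted changes were above 0, as were 54.4% of all genes. In that comparison 25.0% of all genes passed the test, 14.2% as higher and 10.7% as lower, and the number of the 10 below the same threshold, 4, is no evidence because the genes were chosen on it. In CPM the libraries of the 2 groups did not overlap for 6 genes in Ncf1-/- against WT, 7 in treated cells against WT and 8 in treated against vehicle-treated cells, beside 51.2%, 54.3% and 34.1% of all genes. With only the 2 Ncf1-/- groups fitted that number was 8, with or without the preparation as a block, and nothing is read from it.

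**Figure D1:**
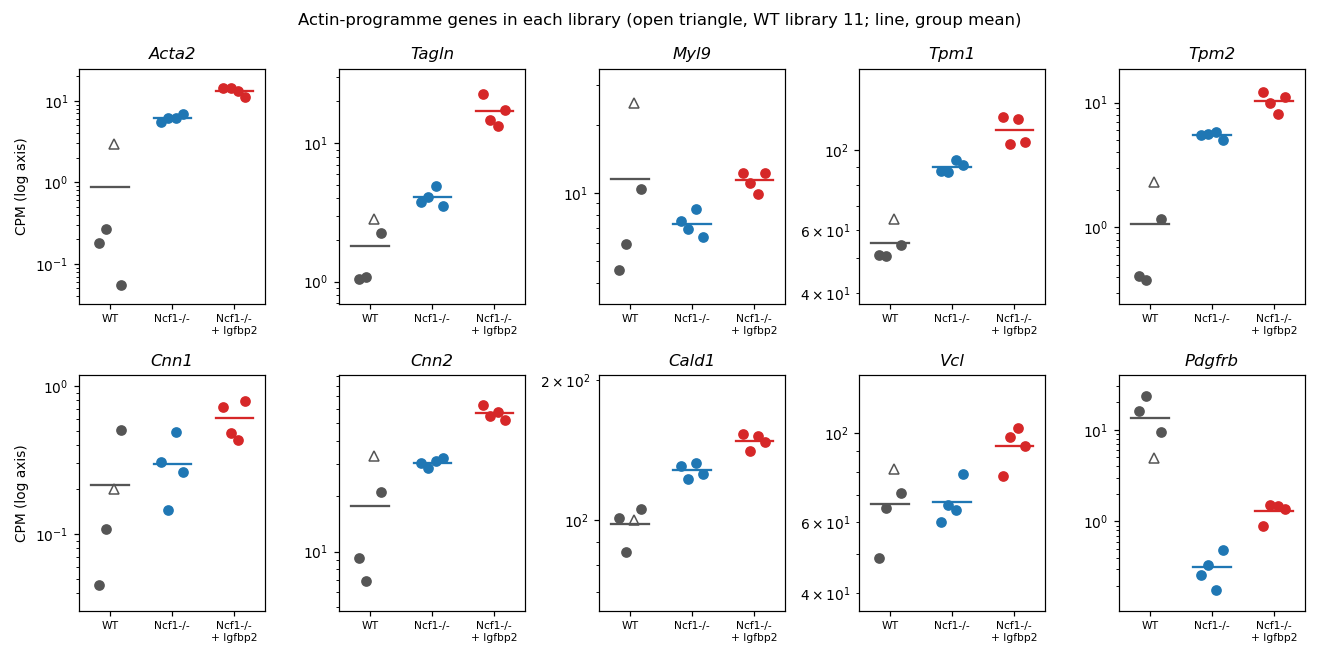
Normalised level (CPM, log axis) of each gene in the 12 libraries, with 1 point per library, a line at the mean of each group and an open triangle for WT library 11. *Acta2* lay between 0.0557 and 2.98 CPM in WT, between 5.49 and 6.86 CPM in Ncf1-/- and between 11.3 and 14.5 CPM in Igfbp2-treated Ncf1-/- libraries, while *Pdgfrb* was highest in WT.

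*Acta2* (chr19:34241090-34255590, minus strand, by GENCODE M21 on GRCm38, as are all gene positions) had 0.182, 0.270, 2.98 and 0.0557 CPM in WT libraries 9 to 12, 5.49, 6.10, 6.09 and 6.86 CPM in vehicle-treated Ncf1-/- libraries 1 to 4, and 14.5, 14.4, 13.1 and 11.3 CPM in treated libraries 5 to 8. The 3 groups did not overlap in CPM, and WT library 11 held 104 of the rounded counts where the other WT libraries held 4, 5 and 1. In TPM, RSEM's abundance per transcript length, vehicle-treated (2.30 to 3.65) and treated libraries (3.16 to 5.34) overlapped. The level was 5.88-fold higher in Ncf1-/- than in WT (log2 fold change 2.55 ± 0.61 SE, edgeR adjusted p = 0.00286) and 12.7-fold higher in treated cells than in WT (3.67 ± 0.61, edgeR adjusted p = 0.000186). Without WT library 11 these log2 fold changes were 5.12 and 6.23, and without libraries 11 and 12 they were 4.71 and 5.78. Treated exceeded vehicle-treated cells by 1.11 ± 0.52 on the log2 scale, with means of 13.3 ± 1.48 and 6.14 ± 0.564 CPM (SD, n = 4).

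The other gene named in the choice, *Tagln* (chr9:45929619-45936058, minus strand), encodes transgelin, an early marker of smooth muscle. Its levels were 1.05, 1.08, 2.84 and 2.23 CPM in WT, 3.75, 4.06, 4.90 and 3.54 CPM in Ncf1-/- and 22.8, 14.8, 13.4 and 17.5 CPM in treated Ncf1-/- libraries. The groups did not overlap, and the wider gap lay between vehicle and Igfbp2, where the lowest treated library had 2.73 times the level of the highest vehicle-treated one. *Tagln* rose 2.19-fold in Ncf1-/- against WT (log2 fold change 1.13 ± 0.29, edgeR adjusted p = 0.00480) and 9.23-fold in treated cells against WT (3.21 ± 0.29, edgeR adjusted p = 1.28e-06). Without WT libraries 11 and 12 these log2 fold changes were 1.88 and 3.92. The difference between treated and vehicle-treated cells was 2.08 ± 0.27 on the log2 scale, 17.1 ± 4.16 against 4.06 ± 0.598 CPM (SD, n = 4). *Tagln* overlaps *Pcsk7* on the opposite strand, and whether reads were counted by strand is not given in the sources used here. *Pcsk7* lay between 21.7 and 27.1 CPM in all libraries.

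Among the tropomyosins, *Tpm2* (chr4:43514711-43523765, minus strand) had 0.409, 0.378, 2.32 and 1.17 CPM in WT, 5.49, 5.56, 5.83 and 5.04 CPM in Ncf1-/- and 12.1, 9.92, 8.13 and 11.1 CPM in treated libraries, again without overlap. The fold over WT was 4.74 in Ncf1-/- (log2 fold change 2.24 ± 0.39, edgeR adjusted p = 0.000287) and 8.90 in treated cells (3.15 ± 0.39, edgeR adjusted p = 1.7e-05). These log2 fold changes of *Tpm2* were 3.09 and 4.0 without WT library 11, and 3.73 and 4.60 without libraries 11 and 12. *Tpm1* (chr9:67022590-67049406, minus strand), which most cells express, had 50.8 to 64.4 CPM in WT, 86.8 to 93.7 CPM in Ncf1-/- and 104 to 124 CPM in treated libraries. Its groups did not overlap in CPM either, though in TPM the treated libraries (43.3 to 70.3) overlapped both other groups. The steps were small, 1.62-fold (log2 fold change 0.70 ± 0.09, edgeR adjusted p = 3.29e-05) and 2.06-fold over WT (1.04 ± 0.09, edgeR adjusted p = 1.33e-06). Treated exceeded vehicle-treated cells by 0.91 ± 0.34 for *Tpm2* and 0.34 ± 0.09 for *Tpm1* on the log2 scale of CPM, whereas on log2(TPM + 1) the latter was -0.09.

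*Cnn2* (chr10:79988584-79996062, plus strand), a calponin that non-muscle cells use too, had 9.19, 6.91, 33.3 and 21.2 CPM in WT, 30.2, 28.4, 31.2 and 32.3 CPM in Ncf1-/- and 62.7, 54.6, 57.8 and 51.8 CPM in treated libraries. WT library 11 lay above all 4 vehicle-treated Ncf1-/- libraries, so that those groups overlapped, while the treated libraries lay above all others in CPM. In TPM the lowest treated library, at 11.4, lay below WT library 11 at 13.9 and within the vehicle-treated range of 10.4 to 13.3. The difference of Ncf1-/- from WT did not pass the test (log2 fold change 0.78 ± 0.35, edgeR adjusted p = 0.0759) but did without WT library 11 (1.31, edgeR adjusted p = 0.00086), with library totals (0.94, edgeR adjusted p = 0.0399) and with DESeq2 (0.79, DESeq2 adjusted p = 0.0343). Treated cells were 3.18-fold above WT (1.67 ± 0.36, edgeR adjusted p = 0.00122) and 0.89 ± 0.35 above vehicle-treated cells on the log2 scale. Without WT libraries 11 and 12 the log2 fold changes of *Cnn2* against WT were 1.87 and 2.73. *Cnn1* (chr9:22099216-22109630, plus strand), the calponin of mature smooth muscle, was near the limit of detection, with 1 to 16 counts per library. Its levels were 0.0455 to 0.501 CPM in WT, 0.145 to 0.486 CPM in Ncf1-/- and 0.430 to 0.786 CPM in treated libraries, and all 3 groups overlapped. It passed the test in treated cells against WT alone (1.53 ± 0.52, edgeR adjusted p = 0.020), and not when WT library 9 or 10 or treated library 5 was left out (edgeR adjusted p = 0.0504 to 0.0597) or on log2(TPM + 1) (0.10, limma adjusted p = 0.122). The value was 2.12 without WT library 12. In Ncf1-/- against WT *Cnn1* was at 0.53 ± 0.55 (edgeR adjusted p = 0.432), and without WT libraries 11 and 12 it passed there (1.89, edgeR adjusted p = 0.0346) and was at 2.85 in treated cells.

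*Cald1* (chr6:34598500-34775473, plus strand) and *Vcl* (chr14:20929398-21033676, plus strand) were well detected in every library. *Cald1* had 85.6 to 106 CPM in WT, 123 to 133 CPM in Ncf1-/- and 141 to 153 CPM in treated libraries, which did not overlap. In TPM these 3 groups overlapped, at 33.5 to 46.1, 42.0 to 43.5 and 30.8 to 44.8. The log2 fold changes were 0.38 ± 0.08 in Ncf1-/- (edgeR adjusted p = 0.000859) and 0.59 ± 0.08 in treated cells (edgeR adjusted p = 2.52e-05) against WT, and 0.21 ± 0.08 between treated and vehicle-treated cells. On log2(TPM + 1) both calls for *Cald1* against WT were lost, at 0.11 in Ncf1-/- (limma adjusted p = 0.541) and -0.10 in treated cells (limma adjusted p = 0.555), and the value against vehicle-treated cells was -0.21. The difference of *Vcl* between Ncf1-/- and WT did not pass the test (0.02 ± 0.14, edgeR adjusted p = 0.919), with 48.8 to 81.3 CPM in WT and 60.1 to 79.2 CPM in Ncf1-/- libraries. In treated libraries *Vcl* was at 78.0 to 103 CPM, which overlapped both other groups, and it passed the test against WT (0.48 ± 0.14, edgeR adjusted p = 0.0109). That call was lost with library totals (0.39, edgeR adjusted p = 0.0548), without treated library 7 (0.36, edgeR adjusted p = 0.0594) and on log2(TPM + 1) (0.06, limma adjusted p = 0.843). *Vcl* exceeded vehicle-treated cells by 0.46 ± 0.14 on the log2 scale of CPM and was -0.01 on log2(TPM + 1). *Cald1* overlaps 3 non-coding genes and *Vcl* overlaps *Ap3m1*, all on the opposite strand, and *Ap3m1* lay between 58.3 and 85.6 CPM in all libraries.

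*Myl9* (chr2:156775420-156781658, plus strand) differed from WT in a direction that rested on a single library. It had 4.59, 5.94, 25.0 and 10.4 CPM in WT, 7.54, 6.92, 8.48 and 6.38 CPM in Ncf1-/- and 12.2, 11.1, 9.85 and 12.3 CPM in treated libraries. The WT libraries spanned the range of both other groups, while treated libraries lay above the vehicle-treated ones in CPM. In TPM treated (5.79 to 6.93) and vehicle-treated libraries (5.58 to 6.43) overlapped. Neither difference from WT passed the test, with log2 fold changes of -0.67 ± 0.40 in Ncf1-/- (edgeR adjusted p = 0.167) and -0.04 ± 0.39 in treated cells (edgeR adjusted p = 0.938). Without WT library 11 they were 0.08 and 0.72, and the latter passed (edgeR adjusted p = 0.012). Without WT libraries 11 and 12 both passed, at 0.43 (edgeR adjusted p = 0.0286) and 1.03 (edgeR adjusted p = 5.77e-05), while without WT library 9 *Myl9* passed as lower in Ncf1-/- (-0.94, edgeR adjusted p = 0.0349).

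*Pdgfrb* (chr18:61045150-61085061, plus strand) ran the other way between the genotypes. It had 16.0, 23.5, 4.88 and 9.52 CPM in WT, 0.261, 0.339, 0.177 and 0.485 CPM in Ncf1-/- and 0.886, 1.5, 1.48 and 1.37 CPM in treated libraries. The lowest WT library, number 11, still exceeded every Ncf1-/- library, and the treated libraries all exceeded the vehicle-treated ones in CPM. In TPM the lowest treated and the highest vehicle-treated library were both at 0.08. In Ncf1-/- cells it was 41.0-fold lower than in WT (log2 fold change -5.36 ± 0.50, edgeR adjusted p = 1.91e-06), and in treated cells 10.1-fold lower (-3.34 ± 0.43, edgeR adjusted p = 2.25e-05). Without WT libraries 11 and 12 these log2 fold changes were -5.96 and -3.98. Vehicle-treated libraries held 4 to 13 counts and treated ones 16 to 31, a difference of 2.02 ± 0.57 on the log2 scale.

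**Figure D2:**
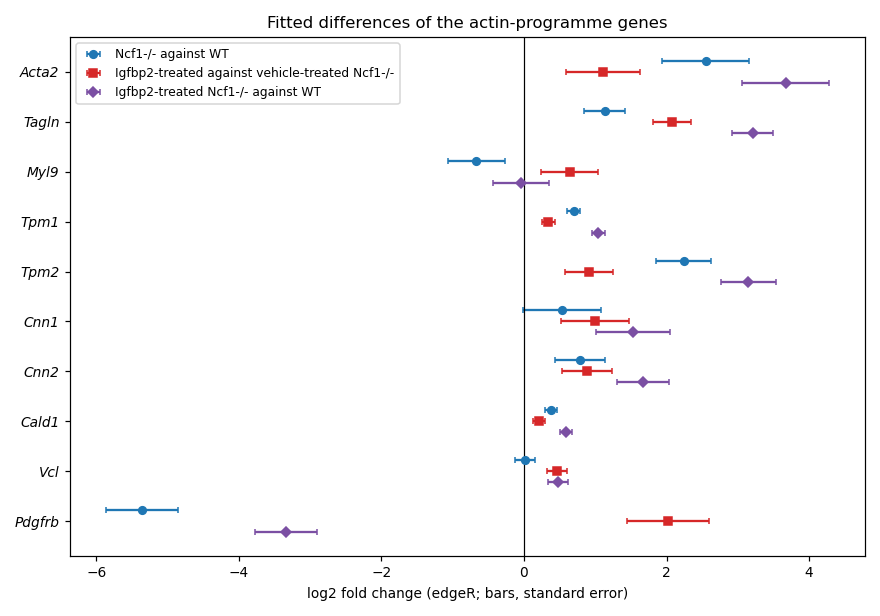
Fitted log2 fold change of each gene (horizontal axis, bars of 1 standard error, 4 libraries per group) in the 3 comparisons. *Acta2*, *Tagln* and *Tpm2* lie to the right in all 3, and *Pdgfrb* lies at -5.36 in Ncf1-/- against WT and at 2.02 in treated against vehicle-treated cells.

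Per transcript length the order of the genes was similar in the 3 groups at the top and different below. *Cald1* and *Tpm1* had the highest levels in WT, at 39.7 ± 5.76 and 38.5 ± 9.24 TPM (RSEM's abundance per transcript length, mean ± SD, n = 4), which overlapped. *Vcl*, *Myl9* and *Cnn2* followed in WT at 9.67 ± 2.94, 9.47 ± 8.37 and 6.95 ± 5.38 TPM, within each other's spread. *Pdgfrb* was next in WT at 1.79 ± 0.995 TPM, and last in Ncf1-/- and in treated cells at 0.0450 ± 0.0265 and 0.138 ± 0.0465 TPM. *Acta2* was at 0.432 ± 0.719 TPM in WT, 2.87 ± 0.565 TPM in Ncf1-/- and 4.47 ± 1.03 TPM in treated cells, where *Tagln* had 6.35 ± 0.790 TPM and *Tpm1* 55.8 ± 11.2 TPM. *Actb*, the cytoplasmic actin, had 2343 ± 302, 2573 ± 329 and 1953 ± 384 TPM in WT, Ncf1-/- and treated cells. On the CPM scale it had 4924 ± 282, 5343 ± 315 and 5610 ± 295 CPM. Its log2 fold change in treated against vehicle-treated cells did not pass the test there (0.07 ± 0.11, edgeR adjusted p = 0.678).

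The WT libraries differed among themselves in the order of these genes. Libraries 9 and 10 were the lowest of the 4 for *Tagln*, *Myl9*, *Tpm2*, *Cnn1* and *Cnn2* and the highest for *Pdgfrb*, at 16.0 and 23.5 CPM, and library 11 was the highest for *Acta2*, *Tagln*, *Myl9*, *Tpm1*, *Tpm2*, *Cnn2* and *Vcl* and the lowest for *Pdgfrb*. Pearson's r of log2 CPM was taken over the 12 libraries, as deviations from the group means. It was highest for *Myl9* with *Tpm2* (0.966), *Tpm2* with *Cnn2* (0.956), *Tagln* with *Tpm2* (0.937) and *Myl9* with *Cnn2* (0.897). The lowest was -0.911, for *Tagln* with *Pdgfrb*. Other pairs went less together, with 0.449 for *Acta2* with *Tagln*, -0.120 for *Acta2* with *Cnn1* and -0.117 for *Cald1* with *Vcl*. These values describe the libraries and rest largely on WT, where the oligodendrocyte genes summed to 9999, 10310, 1847 and 5790 CPM in libraries 9 to 12. The part of that difference in the levels of the actin genes was not tested.

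**Figure D3:**
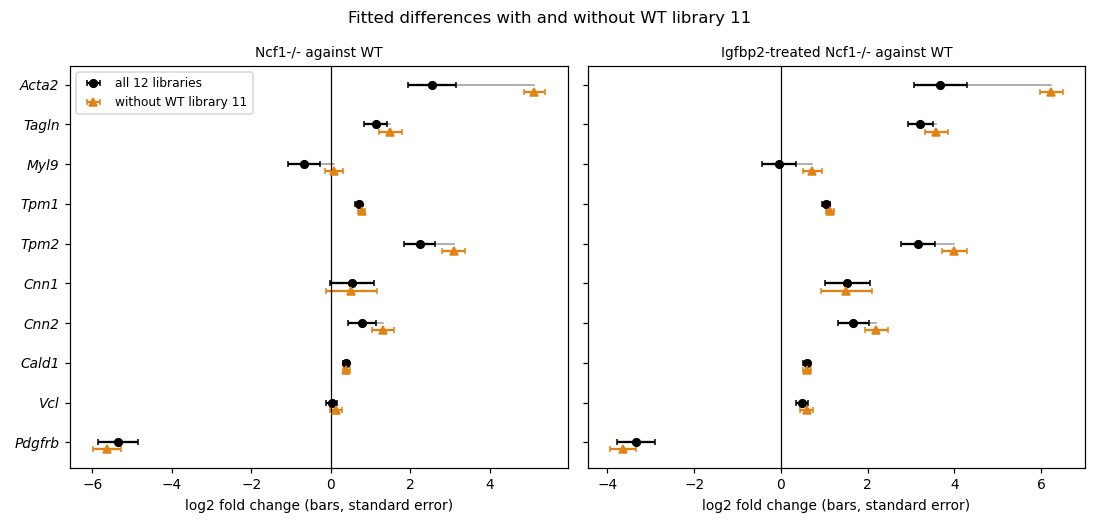
Fitted log2 fold change against WT of each gene (horizontal axis, bars of 1 standard error) with all 12 libraries (circles) and without WT library 11 (triangles). *Acta2* moves from 2.55 to 5.12 in Ncf1-/- and from 3.67 to 6.23 in treated cells, and *Myl9* from -0.67 to 0.08 and from -0.04 to 0.72.

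The scale bore on the small differences between treated and vehicle-treated cells. The median log2 fold change of all genes in that comparison was 0.04 with TMM factors, -0.23 with library totals and -0.30 on log2(TPM + 1). Of the genes called, 2238 of 3923 were higher with TMM factors, 648 of 5906 with library totals and 200 of 6354 on log2(TPM + 1). Below 0 on 1 or more of these scales were *Cald1*, *Tpm1* and *Vcl*, all above the median of all genes on the same scale, and the other 7 genes stayed above 0. In Ncf1-/- against WT the median of all genes was 0.19 with library totals, and 6024 of 9183 called genes were higher there against 4545 of 8978 with TMM factors. In treated cells against WT 4964 of 9801 called genes were higher with TMM factors and 1969 of 8859 on log2(TPM + 1), where the median was -0.25.

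The transcripts counted for a gene can be compared by the mean transcript length that RSEM gives, weighted by abundance. *Acta2*, *Tagln*, *Cnn1* and *Vcl* have 1 transcript in the files, and *Tpm1* and *Cald1* have 21 and 18. For *Cald1* the length was 1924, 1939, 2078 and 1898 bases in WT, 2261, 2277, 2378 and 2716 bases in Ncf1-/- and 2224, 2365, 2362 and 2318 bases in treated libraries. Every Ncf1-/- library had longer *Cald1* transcripts than every WT library, by 448 bases on average in vehicle-treated and 358 bases in treated cells. The exact permutation test gave p = 0.0286 for both, the smallest value that 4 against 4 libraries allow, and an adjusted p = 0.171 over 18 tests. For *Tpm1* the length was 1177 to 1277 bases in WT, 1292 to 1336 bases in Ncf1-/- and 1254 to 1296 bases in treated libraries, with an exact p = 0.0286 (adjusted p = 0.171) for Ncf1-/- against WT. None of the 18 differences passed the adjustment, and 3 had the smallest exact p that could be reached. For *Myl9*, *Tpm2* and *Cnn2* the exact p against WT was 0.143 to 0.943 (adjusted p of 0.367 and above). The length includes untranslated parts and does not name the isoform.

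**Figure D4:**
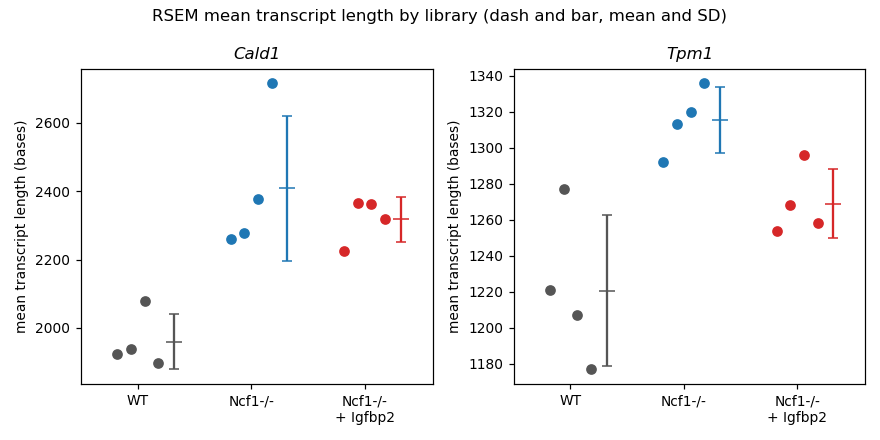
Mean transcript length in bases as RSEM gives it for *Cald1* and *Tpm1*, with 1 point per library and the mean and SD of the 4 libraries of each group beside them. *Cald1* lies between 1898 and 2078 bases in WT and between 2224 and 2716 bases in the Ncf1-/- libraries.

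The genes around this programme were taken from lists written for it with earlier results of these data known, so that their counts are a description. Of all genes tested, 57.2% passed in Ncf1-/- against WT, 25.0% in treated against vehicle-treated cells and 62.4% in treated cells against WT. Of the paralogues of the 10 genes, 14 were listed, 12 were tested, and 4 were higher and 2 lower in Ncf1-/- against WT (median 0.17, all genes 0.02). *Tagln2* rose from 33.3 to 218 CPM (log2 fold change 2.71 ± 0.25, edgeR adjusted p = 1.78e-06) and *Tpm4*, a tropomyosin of non-muscle cells, from 67.5 to 206 CPM (1.61 ± 0.12, edgeR adjusted p = 3.77e-07). *Pdgfra*, the receptor that marks oligodendrocyte progenitors, fell from 283 to 70.3 CPM (-2.01 ± 0.25, edgeR adjusted p = 1.63e-05), as did the light chain *Myl12b* (-0.22 ± 0.08, edgeR adjusted p = 0.0277). In treated against vehicle-treated cells 2 of the 12 passed, *Actg1* at 0.36 and *Myl12a* at 0.33, and both were below 0 on log2(TPM + 0.1), at -0.12 and -0.15. Against WT 6 were higher and 1 was lower in treated cells. The sarcomeric and enteric actins *Acta1* and *Actg2* had at most 1 and 7 counts in any library. *Actc1*, another sarcomeric actin, had up to 174 counts and means of 1.47, 3.41 and 4.18 CPM in WT, Ncf1-/- and treated cells. It did not pass in any comparison.

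All 10 tested genes of 14 late smooth-muscle contractile genes passed in Ncf1-/- against WT, 6 higher and 4 lower, beside 57.2% of all genes. Their median was 1.23, or 1.13 with genes at 3 or fewer counts in all libraries of a group set to that floor. *Pcp4l1* rose from 22.4 to 104 CPM (2.18 ± 0.76, edgeR adjusted p = 0.0258), with WT libraries from 2.32 to 69.1 CPM. *Smtn*, smoothelin, rose from 11.1 to 32.7 CPM (1.56 ± 0.15, edgeR adjusted p = 2.18e-06). *Synpo2* fell from 30.2 to 2.94 CPM (-3.35 ± 0.17, edgeR adjusted p = 2.85e-08). After Igfbp2, 4 of the 10 passed against vehicle, all as higher (median 0.62, all genes 0.04), among them *Synpo2* at 5.20 CPM (0.82 ± 0.17, edgeR adjusted p = 0.00577). Against WT, 6 were higher and 2 lower in treated cells. *Myh11*, the smooth-muscle myosin heavy chain, had at most 12 counts in any library and was not tested.

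Of 16 SRF, MRTF and TEAD regulators, 15 were tested. In Ncf1-/- against WT 1 was higher (*Tead2*, 1.45 ± 0.26, edgeR adjusted p = 0.000396) and 5 were lower, of which *Fhl2*, an SRF-regulated cofactor, fell from 25.6 to 0.376 CPM (-6.06 ± 0.65, edgeR adjusted p = 5.44e-06) and *Srf* from 34.5 to 23.8 CPM (-0.53 ± 0.11, edgeR adjusted p = 0.00110). After Igfbp2, 7 of the 15 were higher and 1 lower than with vehicle, beside 14.2% of all genes called higher (median 0.43). *Mrtfb* rose from 34 to 56.0 CPM (0.72 ± 0.15, edgeR adjusted p = 0.00503) and *Tead1* from 105 to 167 CPM (0.67 ± 0.19, edgeR adjusted p = 0.0236), while *Scai*, which binds and inhibits MRTF, fell from 13.0 to 9.46 CPM (-0.46 ± 0.11, edgeR adjusted p = 0.0102). With library totals these were 0.45, 0.40 and -0.73. On log2(TPM + 0.1), where the median of all genes was -0.42, the values of *Mrtfb*, *Tead1* and *Scai* were 0.18, 0.09 and -1.03. Against WT, 6 of the 15 were higher and 3 lower in treated cells (median -0.03). *Myocd*, the smooth-muscle cofactor of SRF, had at most 1 count in any library.

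Of 22 targets of SRF-MRTF and YAP signalling, 21 were tested, and 5 were higher and 9 lower in Ncf1-/- against WT (median -0.15). *Csrp2* (1.73 ± 0.20, edgeR adjusted p = 1.07e-05) and *Zyx* (0.74 ± 0.13, edgeR adjusted p = 0.000375) rose, while *Amotl2* fell from 194 to 41.0 CPM (-2.24 ± 0.12, edgeR adjusted p = 3.81e-08) and *Cav1* from 21.6 to 6.06 CPM (-1.83 ± 0.34, edgeR adjusted p = 0.000462). After Igfbp2, 7 were higher and 1 lower than with vehicle (median 0.33), with *Myh9*, the non-muscle myosin heavy chain, rising from 304 to 545 CPM (0.84 ± 0.15, edgeR adjusted p = 0.00283) and *Ccn1* from 5.31 to 9.49 CPM (0.84 ± 0.15, edgeR adjusted p = 0.00261), and *Amotl2* falling (-0.35 ± 0.12, edgeR adjusted p = 0.0444). In treated cells against WT 7 were higher and 6 lower. Of 20 genes of RhoA-ROCK signalling and myosin control, all tested, 6 were higher and 7 lower in Ncf1-/- against WT, led by the formin *Diaph3* (1.99 ± 0.15, edgeR adjusted p = 2.74e-07) and by *Rnd3* (-1.23 ± 0.15, edgeR adjusted p = 1.26e-05). After Igfbp2, 2 were higher and 1 lower, *Diaph2* (0.55), *Rhob* (0.46, and -0.02 on log2(TPM + 0.1)) and *Limk2* (-0.33), and against WT 8 were higher and 6 lower. Of the 4 PDGF ligands, 3 were tested and all were lower in both Ncf1-/- groups than in WT. *Pdgfa* fell from 68.9 to 8.97 CPM in Ncf1-/- (-2.94 ± 0.31, edgeR adjusted p = 4.72e-06), *Pdgfc* from 10.4 to 6.98 CPM (-0.57 ± 0.19, edgeR adjusted p = 0.0223) and *Pdgfd* from 2.66 to 1.05 CPM (-1.34 ± 0.26, edgeR adjusted p = 0.000598). *Pdgfb*, a ligand of the β receptor, had at most 7 counts. After Igfbp2, 0 of the 3 passed by edgeR against vehicle (1 at an unadjusted p below 0.05, 0 by DESeq2), with *Pdgfa* at 0.72 (edgeR adjusted p = 0.0980).

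**Figure D5:**
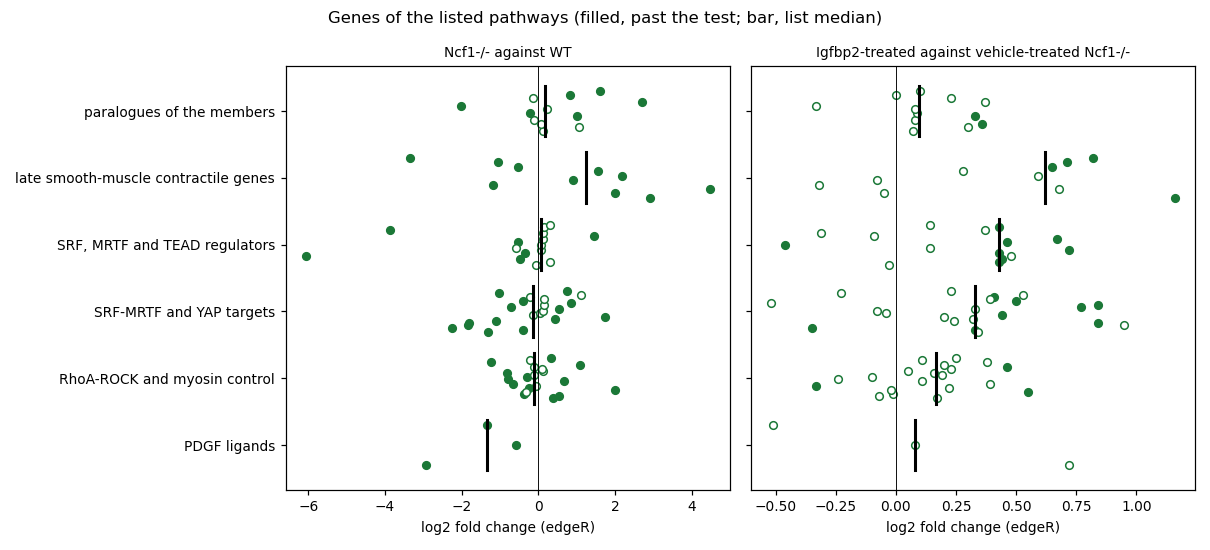
Fitted log2 fold change (horizontal axis) of each tested gene of the 6 pathway lists in Ncf1-/- against WT and in Igfbp2-treated against vehicle-treated Ncf1-/- cells, filled where the gene passed the test, with a bar at the list median. The regulator list has a median of 0.07 on the left and 0.43 on the right.

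Markers of the cells that usually carry this programme were mostly near 0. The more abundant ones differed in their order across the groups. The fibroblast and meningeal sum rose from WT over Ncf1-/- to treated cells, as most of the actin genes did. The mural markers *Mcam* (16.0, 25.1 and 31.1 CPM) and *Des* and the endothelial marker *Flt1* had this order too. In contrast, *Notch3*, *Cspg4* and *Kdr* had other orders. Of 12 fibroblast and meningeal markers 7 were tested, and 5 passed in Ncf1-/- against WT and 4 after Igfbp2 against vehicle, all as higher. Their summed level was 34.8 to 39.8 CPM in WT, 46.4 to 65.8 CPM in Ncf1-/- and 76.3 to 92.4 CPM in treated libraries, without overlap. Most of it was *Prrx1*, with means of 31.1, 33.6 and 43.7 CPM in WT, Ncf1-/- and treated cells, and *Foxc1*, with 4.86, 11.1 and 23.2 CPM. The collagens *Col1a1* and *Col3a1* had means of 0.854 and 0.122 CPM in WT, 2.18 and 2.90 CPM in Ncf1-/- and 4.52 and 3.60 CPM in treated cells, while *Lum*, *Dpt* and *Tbx18* had at most 1 count and *Dcn* at most 4 in any library. Of 13 mural cell markers 7 were tested, with 2 higher and 2 lower in Ncf1-/- against WT and 3 higher after Igfbp2. Their summed level was 285 to 464, 240 to 273 and 392 to 521 CPM in WT, Ncf1-/- and treated libraries, nearly all from *Notch3* and *Cspg4*, which other neural cells express too. *Notch3* had means of 258, 172 and 325 CPM and *Cspg4* of 97.6, 51.2 and 99.1 CPM in WT, Ncf1-/- and treated cells, both lowest in Ncf1-/-. The pericyte markers *Kcnj8*, *Higd1b* and *Atp13a5* had at most 3 counts in any library, and *Des*, desmin, had means of 0.0396, 0.353 and 0.801 CPM in the 3 groups. Of 10 endothelial markers 3 were tested, their sum was 5.0 to 10.9, 5.01 to 8.99 and 12 to 17 CPM, led by *Flt1* (2.26, 3.98 and 10.1 CPM) and *Kdr* (4.46, 1.43 and 1.67 CPM), and *Cdh5*, *Tie1* and *Ly6c1* had at most 1 count. The part of these cells in the levels of the actin genes was not tested.

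All markers of the labelled cell type were present, and *Vim* and *Fabp7* led the list of 10 neural stem cell genes, of which 3 were higher and 6 lower in Ncf1-/- than in WT. All 9 oligodendrocyte genes were lower in both Ncf1-/- groups than in WT, *Mbp* and *Cnp* being the most abundant, and 6 of 7 astrocyte genes were too, *Gfap* among them. The other astrocyte gene, *Aldh1l1*, was at 0.65 in Ncf1-/- (edgeR adjusted p = 0.232) and higher in treated cells than in WT (1.26 ± 0.45, edgeR adjusted p = 0.0277). After Igfbp2, 1 of the 10 stem cell genes was higher (*Msi1*) and 1 lower (*Hes5*) than with vehicle, and by edgeR 0 of the 7 astrocyte genes (0 at an unadjusted p below 0.05, 0 by DESeq2) and 0 of the 9 oligodendrocyte genes (2 and 1) passed.

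Among 11171 other genes whose mean over the 12 libraries reached 5 CPM, the pattern most like that of *Acta2* by Pearson's r of log2 CPM was that of *Nes* (0.985), the neural stem cell filament nestin, with 211, 799 and 1021 CPM in WT, Ncf1-/- and treated cells. *Mrps6*, *Lmbr1*, *Tmc6* and *Megf11* followed, at 0.983 to 0.984. For *Tagln* it was *Abhd8* (0.991), with 57.6, 71.2 and 102 CPM, followed by *Cystm1*, *Spry2*, *Ifngr2* and *Olfml2a* at 0.982 to 0.985. All points share the same 3 groups, and none of these genes is in the lists of contractile or SRF-regulated genes.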

How the data were processed

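RNA depleted of rRNA from 12 cultures was sequenced, 4 per group with 1 library each. The authors mapped reads with Bowtie2 and quantified genes with RSEM (GRCm38 per the labels, versions and annotation release not given in the sources used here). The deposited expected counts (RSEM's estimated counts) are not normalized and summed to 18201622 to 34086554 per library. The deposited TPM and FPKM values were made by RSEM, and FPKM was not used. Transcript lengths, and effective lengths, are averages over transcripts made by the authors with RSEM. The merged table of the authors holds a score, each TPM times how many transcripts the gene has (true within 1% for 100% of values above 0), and only its gene symbols were used.

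Expected counts were rounded and fitted with edgeR 4.0.16 in R 4.3.3 (filterByExpr, TMM factors, quasi-likelihood test, a mean per group, no covariate) over all 12 libraries, and p-values were adjusted over 15706 genes by the Benjamini-Hochberg method at 0.05. Standard errors (SE) were taken from the log2 fold change and its F statistic. CPM use library sizes with TMM factors. Transcript lengths were compared by a two-sided exact permutation test in scipy 1.17.1. The test was tried on simulated counts. Alternatives were DESeq2 1.42.0, library totals, no filter, genes averaging 5 CPM or more, a fit of the 2 compared groups alone, limma 3.58.1 on log2(TPM + 1) and log2(TPM + 0.1), the study's test on TPM, the preparation as a block, and each library left out. The methods pair treated and vehicle-treated cultures by animal. With group means taken off, cultures of 1 preparation had correlations across genes of -0.0673 to 0.0328, and the other pairs -0.248 to 0.257.

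The 10 genes and the lists were chosen with earlier results of these data known. Named beside them were, per pathway list and comparison, up to 2 called genes with the largest rise and 2 with the largest fall among those of at least 5 CPM, all genes of lists of at most 5, per marker list the 2 most abundant genes and those near 0, and the 5 genes most like *Acta2* and *Tagln*. *Col1a1*, *Col3a1*, *Des*, *Mcam*, *Msi1*, *Hes5*, *Actb*, *Actc1*, *Pcsk7* and *Ap3m1* were named after their values were seen, and some named by the rule in treated cells against WT are given as counts. A pathway gene that the rule names is not reported here. Replicates all differed by more than sampling noise (lowest chi-square per degree of freedom 4.63, vehicle-treated libraries 2 and 3). By the study's methods, cultures within a group came from separate pups, which was not tested.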

Additional observations from a re-analysis of the deposited data

Results flagged for a closer look

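*Acta2* in WT library 11 was far from the other WT libraries, at 2.98 CPM where the next highest had 0.270 CPM, a gap of 0.927 of the range of the 4. It was the 1 such value among 30 groups examined, of which chance gives about 1 in 20, or 1.5. The same library had the least oligodendrocyte RNA of the WT libraries, 1847 CPM over 9 genes against 5790 to 10310 CPM. It had the most astrocyte RNA, 11943 CPM over 7 genes against 6466 to 10613 CPM. The part of either in the level of *Acta2* was not tested.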

How the results depend on the processing

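Of 10 genes, 6 passed in Ncf1-/- against WT, and leaving out 1 library gave 6 to 7. In treated cells against WT 9 passed, and 8 to 10 when 1 library was left out. Without WT libraries 11 and 12, an alternative chosen after seeing the data, 9 and 10 passed. The study's test on TPM called 3 (*Acta2*, *Tpm2* and *Pdgfrb*) and 4 (these and *Tagln*). In treated against vehicle-treated cells, by which the genes were chosen so that the counts are no evidence, 4 passed, against 7 with DESeq2, 2 with library totals, 2 at a mean of at least 5 CPM, 1 with limma on log2(TPM + 1), 1 on log2(TPM + 0.1), 1 with the study's test, 8 with only the 2 groups compared, 8 with the preparation as a replicate block, and 8 without WT libraries 11 and 12. With 1 library left out the count was 1 to 8. It was 8 without WT library 11, 1 without vehicle-treated library 1 or 2 or treated library 7, and 2 without vehicle-treated library 3 or treated library 6 or 8. *Acta2*, *Cnn2*, *Myl9* and *Tpm2* were called with only the 2 groups compared, with or without the block, and DESeq2 gave *Acta2* no adjusted p. Pathway genes called in Ncf1-/- against WT numbered 52, and 34 with limma on log2(TPM + 1), 23 with the study's test and 43 to 56 with 1 library left out. In treated cells against WT they numbered 54, and 26 with the study's test and 50 to 56 with 1 library left out. In treated against vehicle-treated cells they numbered 25, and 15 with library totals, 14 with limma on log2(TPM + 1), 16 on log2(TPM + 0.1), 1 with the study's test and 10 to 30 with 1 library left out (10 without vehicle-treated library 1 or 2 or treated library 6, 11 without vehicle-treated library 3 or treated library 7, 13 without treated library 8). The fitted change turned for *Myl9* in Ncf1-/- against WT (-0.94 to 0.08 with 1 library left out, 0.43 without WT libraries 11 and 12) and in treated cells against WT (-0.30 to 0.72, and 1.03), and for *Vcl* in Ncf1-/- against WT (-0.11 to 0.13). In treated against vehicle-treated cells it turned for *Cald1* with library totals (-0.06), limma on log2(TPM + 1) (-0.21) and log2(TPM + 0.1) (-0.22) and the study's test (-0.20), for *Tpm1* with these TPM alternatives (-0.09, -0.09 and -0.08) and for *Vcl* with limma (-0.01 and -0.02). *Cald1* in treated cells against WT was -0.10 under each TPM alternative. The cause was not tested. None of the transcript length differences passed under any alternative, and with 4 against 4 libraries the smallest exact p was 0.0286. At this depth *Cnn1* (1 to 16 counts) and *Pdgfrb* in vehicle-treated cells (4 to 13 counts) are imprecise.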
